A study of Homo sapiens with 17 samples.

Results

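The genes described here are members of the SOX family of transcription factors, with the long noncoding RNA gene SOX2-OT that surrounds SOX2. The list was drawn up by symbol with earlier results of these data known, so counts of called members do not stand for the whole family. SOX2, SOX2-OT, SOX4, SOX7, SOX9, SOX12, SOX13, SOX15 and SOX21 were looked up in every library. These 9 symbols matched 10 of the 57820 entries of each table, since SOX7 was listed under 2 identifiers. The data are RNA sequencing of poly-A RNA from 17 libraries of human squamous cancer cell lines, 13 of KYSE140 (esophageal) and 4 of SKMES1 (lung). They were collected to learn what an enhancer called e1, near SOX2, does for SOX2 and for the genes that SOX2 acts on.

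The libraries form 8 groups. In e1 repression, KYSE140 cells carried a CRISPRi repressor, built on a Cas9 that does not cut, with guide sg-e1#1 or sg-e1#2 (2 libraries) or with guide sg-NC#1 or sg-NC#2 as negative controls (2 libraries). In the SOX2 knockout, KYSE140 cells carried active Cas9 with guide sg-SOX2#2, sg-SOX2#3 or sg-SOX2#4, which cut the coding region of SOX2 (3 libraries), or with a guide to AAVS1 or to the control site Chr2.2 (2 libraries). For ARV-771, a molecule that makes cells degrade BET bromodomain proteins, KYSE140 cells received a 0.5 µM dose for 6 h (cultures A and B) or DMSO for 6 h (cultures A and B). In e1 activation, SKMES1 cells carried an inactive Cas9 with recruited activators (CRISPRa) and guide sg-e1#1 or sg-e1#3 (2 libraries) or guide sg-NC#1 or sg-NC#2 (2 libraries). All guide-bearing cells were infected and drug-selected pools, not single clones, so a pool could hold cut and uncut SOX2 alleles, and a cut coding region does not set the RNA level of SOX2. Replicates of a group were different guides or 2 cultures, and p-values therefore measure only the spread between those libraries. With 2 or 3 libraries a group, a lack of overlap between groups is a weak mark. It is given as a description, and its share over all genes was not counted. In pools of cells, fewer cells of a type and less RNA per cell cannot be told apart.

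SOX proteins bind DNA through an HMG box, a domain that sits in the minor groove at an ACAAT-like core and bends the DNA, and most of them act together with a partner transcription factor. The family is divided into lettered groups by that box. SOX2 and SOX21 are in group B, SOX4 and SOX12 in group C, SOX13 in group D, SOX9 in group E, SOX7 in group F and SOX15 in group G. SOX2 is known for keeping stem cells undifferentiated and for specifying the foregut and squamous epithelium, and it is often amplified in squamous cancers.

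Of the 9 members, 6 matched a table of RefSeq promoters, and SOX7, SOX9 and SOX15 did not. For the 5 of them that encode a SOX protein, all of which fell together with ARV-771 as described further on, the 250 bases before the annotated start site are shown, on build GRCh38.p14 and read 5′ to 3′ on the strand of the gene. They are chr3:181711675-181711924 (plus strand), chr13:94712546-94712795 (minus strand), chr1:204072865-204073114 (plus strand), chr20:325302-325551 (plus strand) and chr6:21593501-21593750 (plus strand). Capitals mark a CCAAT box, which is CCAAT or its reverse complement ATTGG, a motif picked after these letters had been read.
SOX2: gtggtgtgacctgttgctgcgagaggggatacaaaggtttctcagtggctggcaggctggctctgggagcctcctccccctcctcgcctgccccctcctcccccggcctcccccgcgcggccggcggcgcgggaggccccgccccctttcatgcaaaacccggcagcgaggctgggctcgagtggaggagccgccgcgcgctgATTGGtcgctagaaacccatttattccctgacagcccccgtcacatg
SOX21: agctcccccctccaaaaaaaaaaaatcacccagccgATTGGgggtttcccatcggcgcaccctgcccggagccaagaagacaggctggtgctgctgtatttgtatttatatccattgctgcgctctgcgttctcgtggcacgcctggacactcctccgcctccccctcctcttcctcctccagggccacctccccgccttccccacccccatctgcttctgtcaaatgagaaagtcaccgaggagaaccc
SOX13: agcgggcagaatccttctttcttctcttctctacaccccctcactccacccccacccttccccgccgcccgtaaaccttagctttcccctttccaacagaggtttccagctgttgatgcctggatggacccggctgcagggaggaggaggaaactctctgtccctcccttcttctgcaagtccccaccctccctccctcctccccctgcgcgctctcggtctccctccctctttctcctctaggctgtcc
SOX12: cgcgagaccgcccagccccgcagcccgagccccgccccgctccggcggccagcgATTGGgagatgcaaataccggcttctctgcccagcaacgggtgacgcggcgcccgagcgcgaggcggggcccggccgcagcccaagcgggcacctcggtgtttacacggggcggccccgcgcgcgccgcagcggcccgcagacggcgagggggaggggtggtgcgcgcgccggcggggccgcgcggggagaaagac
SOX4: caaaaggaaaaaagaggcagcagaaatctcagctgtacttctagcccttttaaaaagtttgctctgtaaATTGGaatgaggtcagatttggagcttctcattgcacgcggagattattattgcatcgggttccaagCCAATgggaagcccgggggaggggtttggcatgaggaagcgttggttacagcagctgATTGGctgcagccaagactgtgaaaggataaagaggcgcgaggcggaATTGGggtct

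CCAAT stood once before SOX2, SOX21 and SOX12, 4 times before SOX4 and not before SOX13, and 32.0% of 35116 promoters of this length held it on either strand. ACAAT, the SOX core, and its reverse complement ATTGT were in none of these 5 windows, against 24.6% of all promoters. The AP-1 motif TGANTCA was likewise in none (6.57% of all promoters), and TATAAA on either strand was before SOX21 alone (10.7%). The GC content ran from 48.8% before SOX4 to 79.2% before SOX12, with a median of 58% over all promoters.

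On build GRCh37, SOX2 (ENSG00000181449) lies on the plus strand of chromosome 3 from 181429713 to 181432224, wholly inside SOX2-OT (ENSG00000242808, 180707550 to 181554668, same strand). RSEM gave the pair whole numbers in each of the 17 libraries, but how reads were assigned between the pair was not tested. SOX21 (ENSG00000125285) lies on the minus strand of chromosome 13 from 95361876 to 95364799, SOX4 (ENSG00000124766) on the plus strand of chromosome 6 from 21593982 to 21598850 and SOX12 (ENSG00000177732) on the plus strand of chromosome 20 from 306196 to 310868. SOX13 (ENSG00000143842) spans chromosome 1 from 204042243 to 204096871 on the plus strand. SOX9 (ENSG00000125398, plus strand, 70117161 to 70122557) and SOX15 (ENSG00000129194, minus strand, 7491496 to 7493412) are both on chromosome 17. SOX7 (ENSG00000171056) is on the minus strand of chromosome 8 from 10581278 to 10588021. The second SOX7 entry, ENSG00000258724, carries the name PINX1 in a later annotation and never passed 4.90 counts. It is used below only within summed TPM of SOX genes and shares of them, where it adds at most 0.45 TPM. Expected counts of SOX13 and of SOX7 were not whole in 8 of 17 libraries each, which marks reads shared with other genes. On the opposite strand, NRSN2-AS1 covers SOX12 (at most 7.19 TPM in any library) and SOX9-AS1 covers SOX9 (at most 2.11 TPM).

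Total expected counts ran from 7260730 to 15781463 per library, and the floor of 3 counts stood between 0.19 and 0.413 CPM (a count divided by the library total, on a fixed scale). Of 12 squamous epithelium markers (KRT5, TP63 and others), 12 reached 1 TPM (a share of all transcripts on a fixed total, corrected for transcript length) in each KYSE140 library and 5 to 8 in each of the 4 SKMES1 libraries. Their summed level moved with the guides in KYSE140: it was 11773 and 11951 TPM with negative-control guides and 18743 and 19222 TPM with e1 guides, and 14059 and 15304 TPM with Cas9 control guides against 44828 to 56400 TPM with SOX2 guides. It was 11821 and 11826 TPM in DMSO, 12425 and 12698 TPM with ARV-771 and 1137 to 3941 TPM in SKMES1, where TP63 differed from KYSE140 by -5.69 on the log2 scale. Not all markers on the list followed the sum. TP63 went from 153 and 157 TPM to 94.6 and 98.0 TPM with e1 guides. With SOX2 guides it went from 167 and 182 TPM to between 56.9 and 78.5 TPM. With ARV-771, TP63 went from 145 and 153 TPM to 29.55 and 32.3 TPM. SFN went from 442 and 446 TPM to 134 and 135 TPM there, and S100A2 from 3561 and 3875 TPM to 4824 and 4881 TPM. Summed levels of 12 glandular markers stayed between 1.15 and 6.69 TPM in all 17 libraries. CD68, a lysosomal protein used as a macrophage marker, was at 0.84 and 1.08 TPM with negative-control guides and 24.4 and 25.8 TPM with e1 guides, and at 3.24 and 3.93 TPM with Cas9 control guides against 53.8 to 70.2 TPM with SOX2 guides. The other 5 leukocyte and endothelial markers found did not pass 1.23 TPM in these 9 libraries, with CD3E at 0 in each. The part of these markers in the changes of SOX genes was not tested.

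SOX2 was the most abundant member in every KYSE140 library except those with ARV-771. The 6 KYSE140 control libraries (negative-control guides, Cas9 control guides and DMSO) held from 223 to 428 TPM of it, with a median of 372 TPM. SOX2-OT came next in both sets of guide controls, at 84.0 and 84.1 TPM with negative-control guides and 49.2 and 59.3 TPM with Cas9 control guides. In DMSO, SOX4 (64.2 and 66.7 TPM) stood above SOX2-OT (61.3 and 54.2 TPM). With guide controls SOX4 followed SOX2-OT, at 47.6 to 52.3 TPM. Then came SOX13, SOX21 and SOX12, all between 13.7 and 41.6 TPM over the 6 control libraries, and SOX15 from 8.19 to 17.5 TPM. The exception was the Cas9 controls, where SOX15 (17.5 and 15.5 TPM) stood above SOX12 (16.2 and 15.3 TPM) in each library. SOX9 was the most variable measurable member among these controls, from 0.79 TPM in DMSO culture A to 6.95 TPM with the Chr2.2 guide, an 8.80-fold range. SOX7, a group F factor of endothelial cells, did not pass 0.24 TPM or 5 counts in any KYSE140 library.

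**Figure D1:**
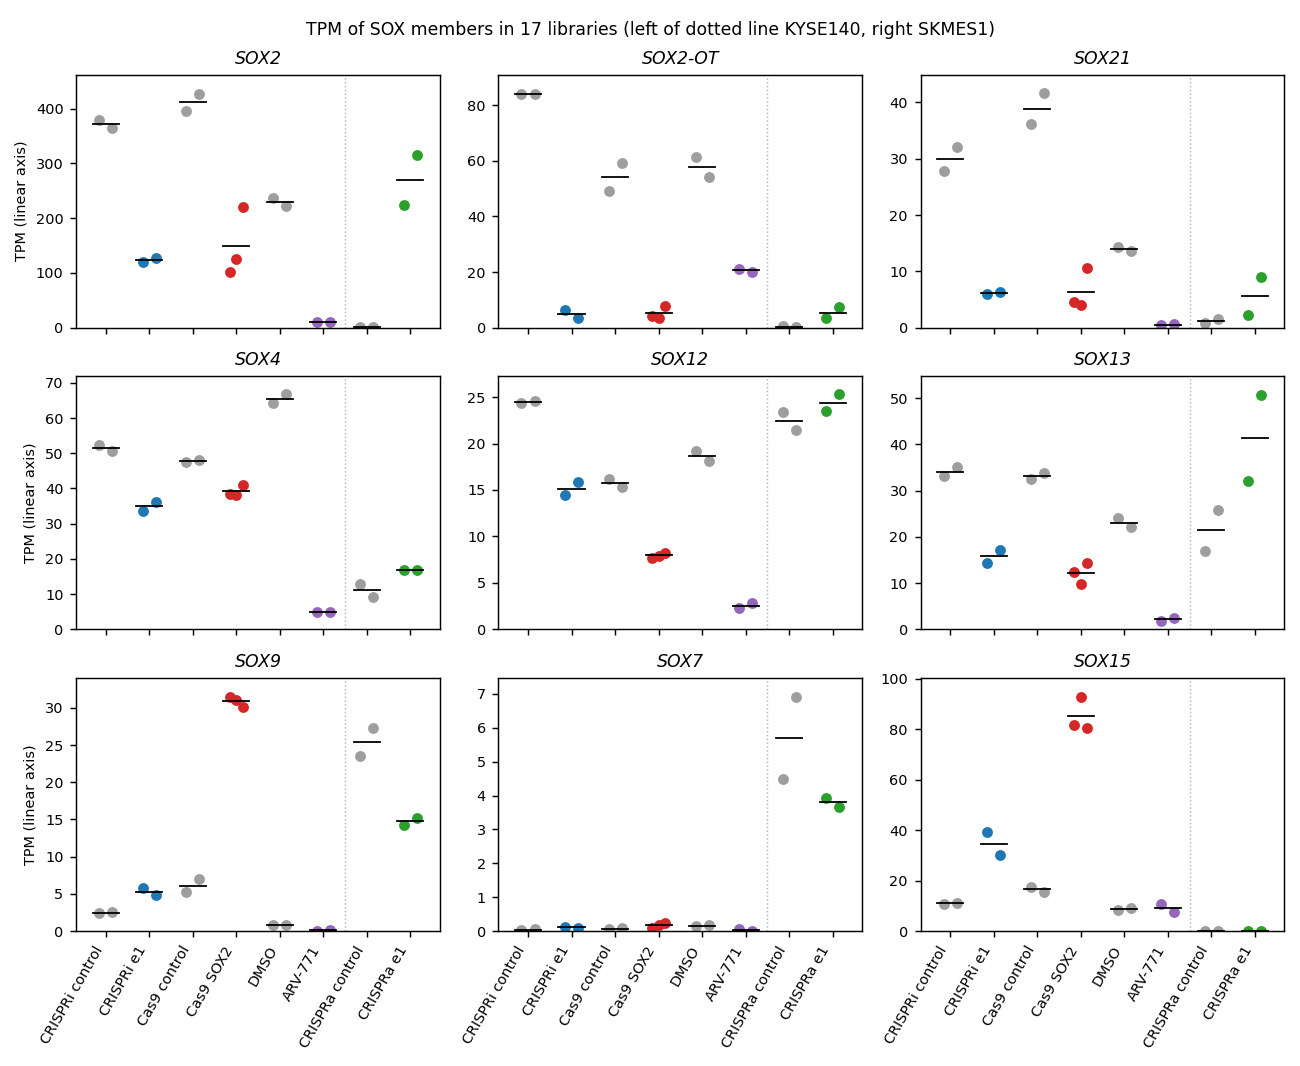
TPM (linear vertical axes starting at 0, each with its own scale) of the 9 members in all 17 libraries by group. Each point is 1 library, black lines are group means and grey points are controls. SOX2, SOX2-OT and SOX21 drop in all 3 treated KYSE140 groups, SOX9 and SOX15 stand highest among KYSE140 libraries with SOX2 guides, and SOX7 exceeds 1 TPM only in SKMES1.

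Repression of e1 lowered SOX2, SOX2-OT, SOX21, SOX13 and SOX12 and raised SOX9 and SOX15. The rule for a call was a fold change over 1.5 together with an adjusted p under 0.05 (edgeR quasi-likelihood test, Benjamini-Hochberg over all genes tested). By that rule 7 of the 8 members tested were called (2 risen, 5 fallen), where 20% of 13792 genes were called (9.3% risen, 10.7% fallen). The median log2 fold change of the 8 was -0.85, beside 0.00 over all genes tested. SOX7 was too low to test.

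SOX2-OT had the largest fall. Its expected counts were 1089 and 1077 with negative-control guides and 35 and 47 with guides sg-e1#1 and sg-e1#2, and its log2 fold change was -4.46 (SE 0.12, edgeR adjusted p = 2.3e-13). In TPM these e1 libraries stood in the opposite order, 6.51 and 3.36, because the effective length that RSEM estimated for SOX2-OT was 830 bases in the former and 1989 bases in the latter. SOX2 itself stood at 119.6 and 128 TPM against 379 and 365 TPM, so that the ratio of SOX2 to SOX2-OT in TPM went from 4.52 and 4.34 to 18.4 and 38.0. All 3 measures separated the groups with no overlap.

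SOX21, a group B relative of SOX2 that acts mainly as a repressor, stood at 27.8 and 32.1 TPM with negative-control guides and at 6.00 and 6.26 TPM with e1 guides. That was a log2 fold change of -2.27 (SE 0.12, edgeR adjusted p = 5.3e-10). SOX21-AS1, which overlaps all of SOX21 on the opposite strand, fell in the same comparison (log2 fold change -1.13, SE 0.20, edgeR adjusted p = 3.1e-04). RSEM gave SOX21 whole numbers in each of the 17 libraries. Libraries were made with a directional kit, but the strand setting of the counting is not given in the sources used here. How reads were assigned between the pair was not tested. SOX21-AS1 did not exceed 7.71 TPM in any library.

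SOX13, a group D factor with no activation domain of its own, stood at 33.1 and 35.1 TPM in controls against 14.4 and 17.1 TPM under e1 guides (log2 fold change -1.10, SE 0.10, edgeR adjusted p = 1.6e-07). Among the group C factors, SOX12 went from 24.4 and 24.5 TPM to 14.4 and 15.8 TPM. Its log2 fold change of -0.60 (SE 0.09, edgeR adjusted p = 4.3e-05) was just past the fold limit, and without sg-NC#1 or without sg-e1#1 it was -0.56 or -0.58 and not called. SOX4, which keeps progenitor cells alive and undifferentiated in many tissues, went from 52.3 and 50.6 TPM to 33.7 and 36.3 TPM. Its log2 fold change of -0.54 (SE 0.06, edgeR adjusted p = 3.9e-06) was under the fold limit, although its groups did not overlap, and it was called without sg-e1#2, at -0.59.

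The members that rose were SOX15 of group G and SOX9 of group E. SOX8, a group E gene outside the members, had a log2 fold change of -0.66 and was not called (edgeR adjusted p = 0.131). SOX15, known from placental trophoblast and muscle progenitors, measured 10.8 and 11.2 TPM in controls against 39.1 and 30.3 TPM under e1 guides, a log2 fold change of 1.90 (SE 0.17, edgeR adjusted p = 2.5e-07). MPDU1, which covers the whole of SOX15 on the opposite strand, was at 138 to 145 TPM in these 4 libraries (log2 fold change -0.00, SE 0.06, edgeR adjusted p = 0.973). SOX9, the master factor of cartilage, measured 2.37 and 2.58 TPM in controls against 5.76 and 4.85 TPM under e1 guides, a log2 fold change of 1.11 (SE 0.18, edgeR adjusted p = 9.9e-05). SOX15 and SOX9 were both above the controls in each e1 library.

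With SOX2 guides, SOX2 RNA itself, which cuts in the coding region need not lower, stood at 103, 125 and 221 TPM against 397 and 428 TPM in the controls (log2 fold change -1.28, SE 0.21, edgeR adjusted p = 2.4e-04). Again 7 of 8 members tested were called, 2 risen (SOX9, SOX15) and 5 fallen (SOX2, SOX2-OT, SOX21, SOX13, SOX12), where 29.7% of 13978 genes were called (16.3% risen, 13.5% fallen). The median log2 fold change of the 8 was -0.95, beside -0.01 over all genes tested. No library is shared with e1 repression, since the knockout had its own controls.

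Of the 2 genes that rose, SOX15 stood at 17.5 and 15.5 TPM with AAVS1 and Chr2.2 guides against 81.8, 92.7 and 80.6 TPM for sg-SOX2#2, sg-SOX2#3 and sg-SOX2#4, a log2 fold change of 2.85 (SE 0.13, edgeR adjusted p = 6.0e-09). It was thereby the second most abundant member in these cells, behind SOX2. SOX9 measured 5.27 and 6.95 TPM in controls against 31.5, 31.1 and 30.1 TPM under SOX2 guides, a log2 fold change of 2.55 (SE 0.12, edgeR adjusted p = 7.5e-09). For SOX15 the effective length estimated by RSEM was 867 to 916 bases in the controls and 1098 to 1108 bases with SOX2 guides, so its TPM rose by less than its counts. MPDU1 went from 148 to 159 TPM in the controls to 102 to 115 TPM with SOX2 guides, with a log2 fold change of -0.20 (SE 0.10, edgeR adjusted p = 0.099).

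SOX21 measured 36.2 and 41.6 TPM in controls against 4.60, 4.03 and 10.6 TPM under SOX2 guides 2, 3 and 4 (log2 fold change -2.40, SE 0.25, edgeR adjusted p = 5.9e-06). SOX2-OT stood at 4.09, 3.63 and 7.80 TPM with those guides (log2 fold change -2.88, SE 0.20, edgeR adjusted p = 1.8e-07). Neither group overlapped its controls. SOX13 stood at 12.3, 9.91 and 14.4 TPM against 32.5 and 33.7 TPM in the controls, and its log2 fold change was -1.13 (SE 0.11, edgeR adjusted p = 5.0e-06). SOX12 stood at 7.71, 7.91 and 8.25 TPM against 16.2 and 15.3 TPM, and its log2 fold change was -0.76 (SE 0.11, edgeR adjusted p = 1.0e-04).

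SOX4 was the member tested that was not called in the knockout. It measured 47.6 and 48.1 TPM in controls against 38.4, 38.0 and 41.0 TPM under SOX2 guides. Its log2 fold change was -0.09 (SE 0.07, edgeR adjusted p = 0.315), with a 95% interval, from its SE, of -0.23 to 0.05. The TPM ranges did not overlap, but with TMM scaling (trimmed mean of M values, which sets most genes to no change) the counts did not differ past the threshold. Scaled by library size alone, the SOX4 value was -0.29, under the fold limit but with an edgeR adjusted p of 0.0045. By limma on log2(TPM + 1) it was -0.28 (adjusted p = 0.0503). Among genes averaging 50 counts or more, the median was -0.01 with TMM and -0.21 by library size.

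Among the 3 knockout libraries, guide 4 had the most SOX2 RNA. In that library all 5 fallen members, SOX2 itself among them, stood highest and both risen members lowest of the 3. For SOX12, SOX9 and SOX15 the gaps to the neighbouring library were small (8.25 against 7.91, 30.1 against 31.1 and 80.6 against 81.8 TPM). The share of all called genes with this order was not counted. Over all genes, guide 4 agreed less with guides 2 and 3 (chi-square over its degrees of freedom 13.4 and 6.78) than they did with each other (2.87). Guide 4 is 1 library, and no test of guides is possible.

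**Figure D2:**
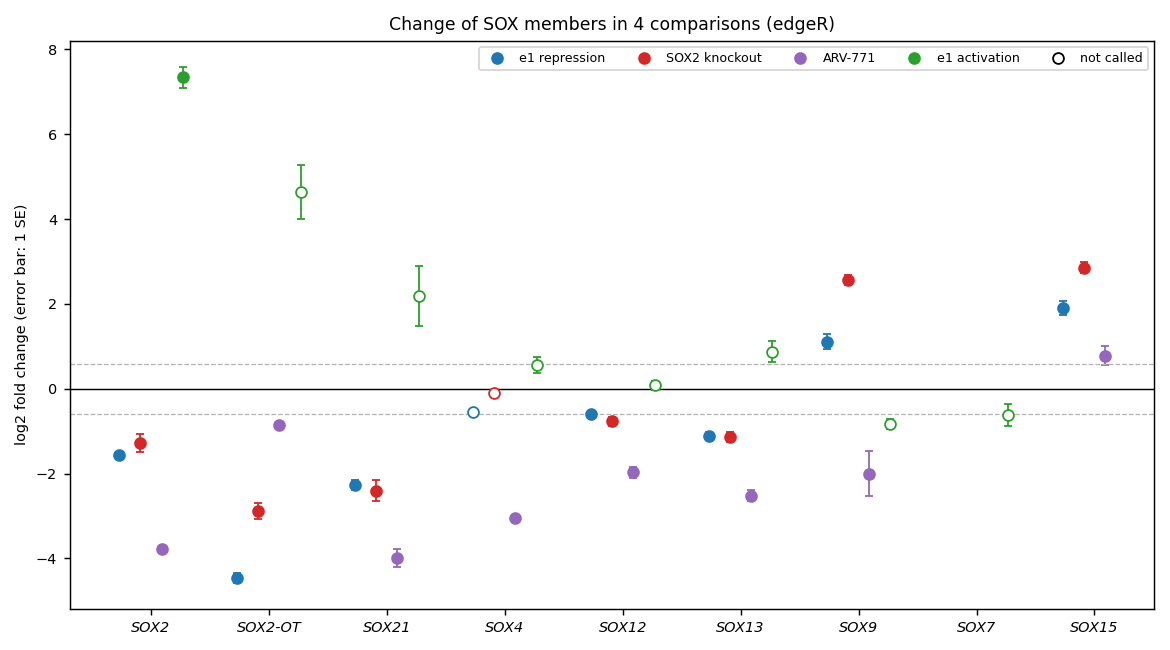
Log2 fold change (vertical axis, treated over control) of each member in e1 repression, SOX2 knockout and ARV-771 (KYSE140) and in e1 activation (SKMES1). Bars are 1 SE, open circles were not called and dashed lines mark a 1.5-fold change. SOX9 and SOX15 lie above 0 in e1 repression and in the knockout, while with ARV-771 SOX9 lies at -2.01 and SOX4 at -3.04.

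The effects of e1 repression and of the knockout were then compared directly, as an interaction contrast over their 9 libraries. Of the 8 members tested, 3 differed, all lower in e1 repression, where 16.6% of 14455 genes differed (8.21% higher, 8.37% lower). The rise of SOX9 was smaller in e1 repression by 1.42 on the log2 scale (difference -1.42, SE 0.21, edgeR adjusted p = 2.0e-04), as was that of SOX15 (difference -0.93, SE 0.24, edgeR adjusted p = 0.0099). The fall of SOX2-OT was larger in e1 repression (difference -1.56, SE 0.30, edgeR adjusted p = 0.0014), and on log2(TPM + 1) with limma this difference was -0.68 with an adjusted p of 0.318. Without the Chr2.2 library the SOX15 difference was -0.80 with an edgeR adjusted p of 0.0504.

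For SOX2, SOX21, SOX13 and SOX12 no difference past the threshold was found. The SOX2 difference was -0.27 (interval -0.81 to 0.27, edgeR adjusted p = 0.512) and the SOX21 difference 0.15 (interval -0.53 to 0.84, edgeR adjusted p = 0.789). Both depended on guide 4: without it the SOX2 difference was 0.09 and the SOX21 difference 0.65, the latter called. SOX13 differed by 0.05 (interval -0.27 to 0.36) and SOX12 by 0.18 (interval -0.07 to 0.44). The SOX4 difference passed the p threshold (-0.43, SE 0.09, edgeR adjusted p = 0.0031) but stayed under the fold limit.

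ARV-771 lowered 7 of 8 members tested within 6 h, and SOX15 was higher on the TMM scale but lower, at -0.30 on the log2 scale, when scaled to mitochondrially encoded genes. All 8 were called, where 52.9% of 13500 genes were called (21.2% risen, 31.7% fallen), the share against which the count of members has to be read. The median log2 fold change of the 8 was -2.26, beside -0.04 over all genes tested. Among genes averaging 50 counts or more, the median was 0.01 with TMM, -0.45 by library size, -0.62 by limma on log2(TPM + 1) and -1.07 when scaled to mitochondrially encoded genes, and all 7 falls were called on each of these scales where the gene was tested.

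SOX2 ranked 2 and SOX4 ranked 5 among all 13500 genes by p. SOX4 stood at 64.2 and 66.7 TPM in DMSO and at 4.85 and 4.81 TPM with ARV-771, a log2 fold change of -3.04 (SE 0.07, edgeR adjusted p = 3.2e-20). SOX2 went from 236 and 223 TPM to 9.80 and 10.5 TPM, a log2 fold change of -3.77 (SE 0.07, edgeR adjusted p = 2.8e-22). Neither gene's groups came near each other. SOX4 fell by 87.8% here.

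SOX21 went from 14.3 and 13.7 TPM to 0.49 and 0.57 TPM, with a log2 fold change of -3.98 (SE 0.21, edgeR adjusted p = 2.0e-14). SOX13 went from 24.0 and 22.1 TPM to 1.87 and 2.50 TPM, with a log2 fold change of -2.52 (SE 0.12, edgeR adjusted p = 7.8e-15). SOX12 went from 19.2 and 18.1 TPM to 2.28 and 2.83 TPM, with a log2 fold change of -1.97 (SE 0.12, edgeR adjusted p = 6.7e-13). In all 3 genes the treated libraries were far below both DMSO cultures. SOX9 was already low in DMSO, with 26 and 27 counts, and had 2 and 8 counts with ARV-771. Scaled to library totals its summed counts were 5.56-fold lower (exact 95% interval 2.80 to 12.2, counting error only), and the edgeR log2 fold change was -2.01 (SE 0.53, adjusted p = 0.0015), or -1.498 (adjusted p = 0.0367) without culture A and -3.07 (adjusted p = 0.0051) without culture B of ARV-771.

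SOX2-OT had a smaller fitted change than SOX2. It went from 61.3 and 54.2 TPM to 21.2 and 20.1 TPM (log2 fold change -0.86, SE 0.08, edgeR adjusted p = 1.1e-09) and was then the most abundant member. The ratio of SOX2 to SOX2-OT in TPM was 3.85 and 4.12 in DMSO and 0.463 and 0.523 with ARV-771. With e1 or SOX2 guides this ratio had gone the other way, to between 18.4 and 38.0, from 4.34 to 8.06 in the respective controls.

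SOX15 stood at 8.19 and 9.04 TPM in DMSO and at 10.7 and 7.46 TPM with ARV-771, so its groups overlapped. Its log2 fold change was 0.77 with TMM (SE 0.23, edgeR adjusted p = 0.0035), 0.31 by library size (adjusted p = 0.219), 0.05 by limma on log2(TPM + 1) (adjusted p = 0.822) and, reversed, -0.30 when scaled to mitochondrially encoded genes (adjusted p = 0.262). Without culture A of ARV-771 the edgeR value was 0.48 with an adjusted p of 0.1. MPDU1 on the other strand had a log2 fold change of 0.81 with TMM (SE 0.06, edgeR adjusted p = 2.1e-11) in the same comparison. No direction is given for SOX15 here.

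Against the knockout, the effect of ARV-771 differed in all 8 members tested, where 55.9% of 14613 genes differed (26.2% higher, 29.7% lower), and against e1 repression likewise in all 8, where 55.8% of 14270 genes differed (23.6% higher, 32.2% lower). In both contrasts 7 members were lower with ARV-771 and SOX2-OT was higher. SOX9 rose in the knockout and fell with ARV-771 (difference -4.45, SE 0.42, edgeR adjusted p = 2.3e-07). That value rests on 10 counts with ARV-771 and ran from -5.51 to -2.87 over 12 refits, each of them called. The SOX4 effect differed from that of the knockout by -2.85 (SE 0.10, edgeR adjusted p = 1.0e-11) and from that of e1 repression by -2.51 (SE 0.10, edgeR adjusted p = 6.1e-14). For SOX2-OT the differences were positive, 2.13 against the knockout (SE 0.23, edgeR adjusted p = 8.4e-07) and 3.59 against e1 repression (SE 0.15, edgeR adjusted p = 3.3e-13), because its fall was smaller with ARV-771. SOX21 differed from the knockout by -1.48 (SE 0.51, edgeR adjusted p = 0.0196), but not past the threshold with all 17 libraries in the fit (adjusted p = 0.0933), without culture A or B of ARV-771 (0.085 and 0.0828) or by limma on log2(TPM + 1) (0.186). Against e1 repression it differed by -1.73 (SE 0.27, edgeR adjusted p = 9.6e-06), or -1.64 with an adjusted p of 0.0741 with all 17 libraries in the fit. The agents also differ in duration, since guide-bearing cells were selected over days and ARV-771 acted for hours.

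**Figure D3:**
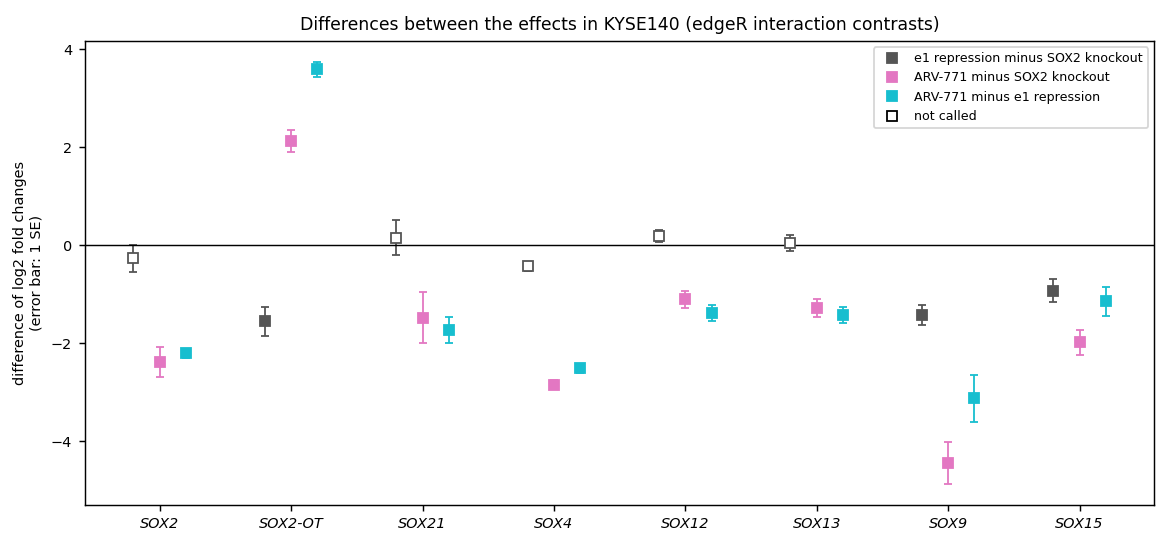
Difference between the effects of 2 perturbations on each member (vertical axis, difference of log2 fold changes, bars 1 SE, open squares not called). The grey squares (e1 repression minus SOX2 knockout) lie nearest to 0 for SOX13, at 0.05, and lowest for SOX2-OT, at -1.56. The contrasts with ARV-771 are negative for 7 members and positive for SOX2-OT.

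Summed over the 8 SOX protein genes, transcripts stood at 530 and 521 TPM with negative-control guides and at 233 and 238 TPM with e1 guides. SOX2 made up 71.5% and 70.0% of the sum before and 51.3% and 53.5% after. In the knockout the sum went from 552 and 589 TPM to 279, 309 and 406 TPM and the share of SOX2 from 71.9% and 72.6% to 36.8%, 40.5% and 54.4%. The other 7 genes did not fall there as a sum: they came to 155 and 161 TPM in the controls and to 176, 184 and 185 TPM with SOX2 guides. SOX15 went from 2.90% ± 0.387 (SD, n = 2) to 26.4% ± 5.67 (SD, n = 3) of the sum and SOX9 from 1.07% ± 0.159 (SD, n = 2) to 9.58% ± 1.98 (SD, n = 3).

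With ARV-771 the sum went from 367 and 354 TPM to 30.2 and 28.9 TPM, and without SOX2 from 131 TPM in both DMSO cultures to 20.4 and 18.4 TPM. SOX2 was 64.3% and 63.1% of the sum in DMSO and 32.5% and 36.5% with ARV-771, where SOX15 made up 30.7% ± 6.92 (SD, n = 2). These 8 genes held between 92.3% and 99.0% of the TPM of all SOX genes in every library. TPM are shares of each library, so a sum in TPM does not show a change in RNA per cell.

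**Figure D4:**
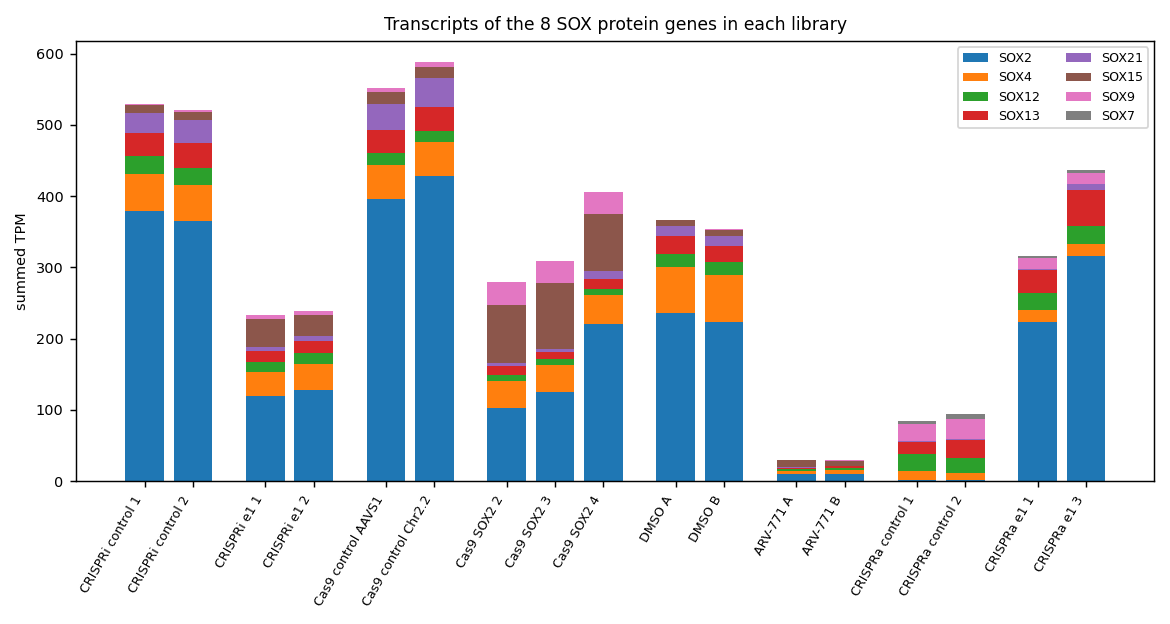
Summed TPM (vertical axis, linear from 0) of the 8 SOX protein genes, stacked by gene, in each of 17 libraries. The second SOX7 entry is left out of the columns. SOX2 is the largest block in the KYSE140 controls, SOX15 and SOX9 widen with SOX2 guides, and the ARV-771 columns are near 30 TPM. SKMES1 columns are higher with e1 guides, at 317 and 437 TPM, than with negative-control guides.

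SKMES1 cells held a different set of SOX genes. In the SKMES1 controls SOX9 was highest at 23.5 and 27.3 TPM, followed by SOX12 (23.4 and 21.4 TPM) and SOX13 (17.02 and 25.9 TPM), whose ranges overlap each other. SOX4 stood at 13.01 and 9.08 TPM, SOX7 at 4.50 and 6.91 TPM, SOX2 at 1.68 and 1.53 TPM and SOX21 at 0.87 and 1.58 TPM. SOX15 had 0 counts in all 4 SKMES1 libraries, while MPDU1 on the other strand was at 88.5 to 115 TPM there.

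Set against the KYSE140 negative-control libraries, 8 of 9 members tested were called, where 55.6% of 15100 genes were called (30.4% higher in SKMES1, 25.2% lower). Line, Cas9 fusion and experiment cannot be told apart in this comparison. SOX9 was higher in SKMES1 by a log2 difference of 3.23 (SE 0.13, edgeR adjusted p = 2.8e-05). SOX7 had 263 counts over both SKMES1 controls and 2 over both KYSE140 controls, a library-scaled ratio of 128 with an exact 95% interval from 35.1 to 1063 (counting error only). SOX15 was at least 26.0-fold lower in SKMES1, taking 3 counts per library as its floor there. SOX2 was lower by 7.98 on the log2 scale (difference -7.98, SE 0.13, edgeR adjusted p = 8.0e-06), SOX21 by a difference of -4.70 (SE 0.24, edgeR adjusted p = 5.6e-05) and SOX4 by a difference of -2.35 (SE 0.18, edgeR adjusted p = 1.8e-04). SOX2-OT had 5 counts over both SKMES1 controls against 2166. SOX13 differed by -0.70 (SE 0.15, edgeR adjusted p = 0.0086), but not past the threshold without either KYSE140 library (adjusted p 0.0569 and 0.0546), and -0.50, under the fold limit, without SKMES1 guide sg-NC#1. SOX12 differed by -0.30 (interval -0.49 to -0.11), under the fold limit.

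Activation of e1 in SKMES1 changed SOX2 past the threshold and no other member. SOX2 stood at 1.68 and 1.53 TPM with negative-control guides and at 224 and 316 TPM with sg-e1#1 and sg-e1#3 (log2 fold change 7.34, SE 0.26, edgeR adjusted p = 0.0045), and it ranked 1 of 14859 genes by p. Thus 1 of 8 members tested was called, where 0.188% of genes were called (0.168% risen, 0.0202% fallen), while 2109 of the 14859 genes and 6 of the 8 members had an unadjusted p under 0.05. Calls of members rested on the settings: 4 were made by DESeq2, 5 with all 17 libraries in the fit and 5 with no filter on low counts. The number also changed when a control library was left out. Of 10 replicate pairs, the SKMES1 controls agreed least (chi-square over its degrees of freedom 28.8), and the SKMES1 e1 guides had 13.3. In e1 repression the control pair had 2.72 and the e1 pair 2.82. Among SOX2 guides in KYSE140, guide 4 had 13.4 with guide 2 and 6.78 with guide 3.

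The members that missed the threshold are given as values. SOX2-OT had 2 and 3 counts with negative-control guides and 32 and 125 counts with e1 guides, a library-scaled ratio of 28.9 with an exact 95% interval from 12.1 to 90.4 (counting error only) and an edgeR adjusted p of 0.0926. It was called in 5 of 11 refits, by DESeq2 (adjusted p = 3.9e-05), with all 17 libraries in the fit (1.5e-04), with no filter on low counts (3.5e-17) and without either control library (0.0231 and 0.0468). SOX9 measured 23.5 and 27.3 TPM in controls against 14.3 and 15.2 TPM under e1 guides (log2 fold change -0.84, SE 0.11, edgeR adjusted p = 0.0926). These groups did not overlap. SOX9 was called by DESeq2 (adjusted p = 5.6e-04), and by edgeR with all 17 libraries in the fit (6.6e-04) and with no filter on low counts (6.9e-07). Its log2 fold change was -0.92 without sg-NC#1 and -0.74 without sg-NC#2. SOX21 stood at 2.33 TPM with sg-e1#1 and 9.08 TPM with sg-e1#3 against 0.87 and 1.58 TPM (log2 fold change 2.19, SE 0.70, edgeR adjusted p = 0.278), and its log2 fold change was 0.87 without sg-e1#3. It was called by edgeR with all 17 libraries in the fit (adjusted p = 0.0165) and with no filter on low counts (1.6e-09). SOX21-AS1 had a log2 fold change of 1.93 there (SE 0.46, edgeR adjusted p = 0.187).

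SOX13 stood at 32.0 and 50.7 TPM with e1 guides against 17.02 and 25.9 TPM (log2 fold change 0.87, SE 0.25, edgeR adjusted p = 0.233, and 0.0377 by DESeq2). It was also called by edgeR with all 17 libraries in the fit (adjusted p = 0.0052) and with no filter on low counts (1.9e-08). SOX4 went from 13.01 and 9.08 TPM to 16.7 and 16.98 TPM (log2 fold change 0.56, SE 0.19, edgeR adjusted p = 0.294, and 0.32 to 0.86 on the log2 scale without 1 library). In both the groups did not overlap, which was also so for SOX7 below. For SOX12 the groups were apart only in TPM, by 23.52 against 23.44. In CPM they overlapped (46.6 and 49.6 with e1 guides, 47.2 and 41.9 in controls). SOX7 stood at 3.94 and 3.66 TPM with e1 guides (log2 fold change -0.62, interval -1.14 to -0.10, edgeR adjusted p = 0.376). SOX12 had a log2 fold change of 0.08 (interval -0.13 to 0.30, edgeR adjusted p = 0.778). SOX2 made up 70.7% and 72.3% of the summed TPM of the SOX protein genes with e1 guides, against 1.99% and 1.63% in the controls. SOX15 remained at 0 counts.

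Other SOX genes were low. Of 11 further SOX genes, 6 could be tested in e1 repression, where 1 fell (10.7% of all genes tested fell), and 5 in the knockout, where 2 fell (13.5% of all genes), and none rose in either. With so few genes these counts are not set apart from those shares. The gene that fell in both was SOX5, a group D factor like SOX13: it had 69 and 86 counts with negative-control guides and 8 and 7 counts with e1 guides, and 36 and 34 counts with Cas9 control guides against 0, 1 and 5 with SOX2 guides 2, 3 and 4. SOX8, a group E relative of SOX9, fell in the knockout, from 43 and 31 counts to 20, 12 and 22 counts (log2 fold change -1.13, SE 0.32, edgeR adjusted p = 0.0114). With ARV-771, 4 of 5 fell (31.7% of all genes), SOX8 among them (log2 fold change -1.81, SE 0.43, edgeR adjusted p = 5.6e-04). The lists' medians were 0.19, -1.13 and -1.81, beside 0.00, -0.01 and -0.04 over all genes tested. In e1 activation the 4 tested had log2 fold changes from -0.93 to 2.43 and edgeR adjusted p of 0.151 or more.

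Genes whose proteins work with SOX factors were read from a list of 12, of which 7 were tested in e1 repression (2 fallen), 7 in the knockout (2 risen, 2 fallen) and 8 with ARV-771 (1 risen, 6 fallen). Of all genes tested, 20%, 29.7% and 52.9% were called in these comparisons, so that 2 of 7 in e1 repression is near the share of all genes. Their medians were 0.13, 0.03 and -1.51. TP63, the squamous lineage factor and a known partner of SOX2, fell in all 3, by log2 fold changes of -0.62 (SE 0.05, edgeR adjusted p = 8.7e-08), -1.22 (SE 0.08, edgeR adjusted p = 1.5e-07) and -1.48 (SE 0.05, edgeR adjusted p = 5.9e-17). PAX6, a partner of SOX2 in the eye, fell by -0.99, -0.84 and -2.45 (edgeR adjusted p = 8.5e-04, 0.0131 and 5.5e-08). KLF4, a pluripotency and epithelial differentiation factor, rose in the knockout (log2 fold change 1.47, SE 0.08, edgeR adjusted p = 3.4e-08) and fell with ARV-771 (log2 fold change -3.28, SE 0.15, edgeR adjusted p = 1.4e-15).

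Of 10 tested genes with an HMG box outside the SOX family, 3 were called in the knockout (1 risen, 2 fallen) and 5 with ARV-771 (all fallen), near the shares of all genes called, 29.7% and 52.9%. In e1 repression all 10 lay between -0.46 (LEF1) and 0.44 (BBX), under the fold limit. Their medians were 0.13 in e1 repression, 0.11 in the knockout and -0.60 with ARV-771. HBP1, a cell cycle repressor, rose in the knockout (log2 fold change 1.23, SE 0.09, edgeR adjusted p = 4.0e-07), and LEF1, a Wnt effector, fell (log2 fold change -1.28, SE 0.20, edgeR adjusted p = 2.2e-04). With ARV-771 both fell, HBP1 by -1.14 (edgeR adjusted p = 5.6e-10) and LEF1 by -1.05 (edgeR adjusted p = 1.2e-05). Cartilage genes, the best-known targets of SOX9, were mostly too low to test: 1 of 9 in e1 repression and 2 in the knockout. They did not move as one. COL2A1, which encodes type II collagen, had 7 and 2 counts in the knockout controls and 22, 12 and 23 counts with SOX2 guides (edgeR adjusted p = 0.0103). In e1 repression, where it was too low to test, it had 7 and 8 counts in controls and 3 and 2 counts with e1 guides. COL11A2, a minor cartilage collagen, rose in e1 repression (log2 fold change 1.06, SE 0.39, edgeR adjusted p = 0.0371) and had a log2 fold change of 0.04 in the knockout (SE 0.38, edgeR adjusted p = 0.944). In the SKMES1 controls 4 of 5 tested cartilage genes were above the KYSE140 controls, among them ACAN and COL9A3, where 30.4% of all genes were, and COL11A2 was lower (log2 difference -2.76, SE 0.67, edgeR adjusted p = 0.0131).

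Over the 13 KYSE140 libraries, the pattern of each member was compared with that of 10081 genes by the mean absolute difference of log2(TPM + 1) after subtracting, in each gene, the mean of the control group of the same experiment. Nearest to SOX2 were NEDD9 (0.22), ARID5B (0.34) and DLX6 (0.36), and these 3 remained with a pseudocount of 0.1. SOX15 was nearest to CRABP2 (0.14), CD82 (0.16) and FXYD5 (0.17), which also remained. For SOX13 the nearest were ID3 (0.13), RASSF9 (0.15) and TP73 (0.17), for SOX12 FOXO6 (0.09), IRX2 (0.10) and RNF168 (0.11), and 2 of each 3 remained. SOX21 was nearest to FEZF1 (0.34), HEY1 (0.36) and CX3CL1 (0.36), and SOX2-OT to CHRM4 (0.28), SOSTDC1 (0.31) and SLC25A48 (0.37), with 1 of each 3 remaining. The genes nearest to SOX4 (S1PR5, 0.09) and SOX9 (KRT80, 0.14) were all replaced under the other pseudocount. These libraries share treatments and depth, and the likeness is a description.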

How the data were processed

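The members and gene lists were chosen with earlier results of these data known, and all of the analysis below was planned in that knowledge. The authors purified poly-A RNA, made directional libraries, aligned reads with Bowtie2 (hg19) and used RSEM to quantify GENCODE genes. Their versions and the strand setting are not given in the sources used here. The deposited expected count is the number of reads RSEM assigns to a gene, not normalized. The deposited TPM is scaled by the authors' RSEM run to each library and to an effective length estimated per library. The deposited effective length, in bases, is used as a score beside TPM. FPKM was not used.

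Expected counts were rounded and tested with edgeR 4.0.16 (quasi-likelihood, TMM, filterByExpr with a minimum count of 10 and total of 15) in R 4.3.3 on the libraries of the groups compared, with Benjamini-Hochberg adjustment over all genes tested. Calls needed a fold change over 1.5 as well as an adjusted p under 0.05. The standard errors are the log2 fold change divided by the root of F. Differences between effects were interaction contrasts over the libraries of 4 groups. The genes named are the 9 members, genes that overlap a member, and genes nearest in pattern with a mean TPM of at least 5. Of the lists, some called genes are named (at most 4 a list), not always those of smallest adjusted p. COL2A1, CD68, BBX and the opposite-strand genes were added after their values were seen. Alternatives were DESeq2 1.42.0, RLE factors, library size, no low-count filter, a mean of at least 50 counts, limma 3.58.1 on log2(TPM + 1) and log2(TPM + 0.1), all 17 libraries in one fit, a fold over 2, mitochondrial scaling, a replicate block, and fits without each library in turn. No 2 replicates agreed within sampling noise (chi-square over its degrees of freedom 2.19 to 28.8). The total count per library ran from 7260730 to 15781463. Intervals on counts are 95% and exact and cover counting error only. GRCh37 coordinates came from GENCODE release 44.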

Additional observations from a re-analysis of the deposited data

Results flagged for a closer look

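A closer look is due where the effect of one perturbation on a member differed from that of another by the test of the difference itself, an edgeR interaction contrast with the same limits as above. All values are differences of log2 fold changes. For e1 repression minus SOX2 knockout, the difference was -1.42 for SOX9, -0.93 for SOX15 and -1.56 for SOX2-OT. For ARV-771 minus SOX2 knockout, it was -4.45 for SOX9, -2.85 for SOX4, -2.39 for SOX2, -1.98 for SOX15, -1.48 for SOX21, -1.29 for SOX13, -1.11 for SOX12 and 2.13 for SOX2-OT. For ARV-771 minus e1 repression, it was -3.13 for SOX9, -2.51 for SOX4, -2.21 for SOX2, -1.73 for SOX21, -1.43 for SOX13, -1.39 for SOX12, -1.15 for SOX15 and 3.59 for SOX2-OT. The SOX9 values with ARV-771 rest on 2 and 8 counts, and more than 55% of all genes tested differed in each contrast with ARV-771.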

How the results depend on the processing

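Over the alternatives the members were refitted 808 times, and 765 refits kept the direction and the call, 18 lost and 18 gained a call and 7 changed direction. Reversals were SOX15 with ARV-771 under mitochondrial scaling (-0.30) and, in e1 repression minus SOX2 knockout without 1 library, SOX21 (-0.067 to 0.65), SOX13 (-0.099 to 0.18) and SOX2 (-0.47 to 0.086). Of 110 recounts 105 stayed within 1.5 times. In e1 activation, members called went from 1 to 5 with all 17 libraries in one fit, 4 with DESeq2, 5 with no low-count filter and 1 to 4 without 1 library. The cause was not tested. With ARV-771, 40.0% of called genes rose under TMM, but 5.90% by library size, 1.89% by limma on log2(TPM + 1) and 0.823% under mitochondrial scaling. In the knockout these were 54.7%, 36.2% by library size and 38.9% by limma on log2(TPM + 1). In e1 activation all genes called went from 28 to 784 with all 17 libraries, 400 with DESeq2, 1116 with no filter and 9 with limma on log2(TPM + 1). With the guide number or culture letter as a replicate block, 7 of 8 members were called in e1 repression, 8 of 8 with ARV-771 and 8 of 9 between the lines, and no call changed. Same-numbered libraries did not deviate together (correlations of 0.02, -0.03 and 0.03 over 11145, 10855 and 12069 genes). With 1 difference between replicates per group, these values cannot decide whether libraries were paired. Between the lines, same-numbered libraries also carried control guides of the same name. The other comparisons share fewer than 2 numbers. Genes near or under 3 counts a library, such as SOX7 in KYSE140 (at most 5 counts) and SOX15 in SKMES1 (0 counts), are at or below the limit of what this depth resolves.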
